A study of Mus musculus with 12 samples.

Results

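The 45 genes described here are a list of cell cycle and DNA replication genes: 19 that act at or before S phase, when DNA is copied, and 26 that act in or on the way to mitosis. All 45 are among the 55304 gene symbols counted in mouse colonic epithelium and among the 15743 that passed the filter on low counts. RNA was sequenced from 12 samples, 4 in each of 3 groups of C57BL/6 mice aged 6 weeks. Control OIL mice are labelled wild-type for Ehf, were given sunflower oil, and carry the source name EVCER, which the labels do not spell out. Control TMX mice are labelled wild-type, received tamoxifen, and carry Cre recombinase that tamoxifen activates (Villin CreERT2), driven by the promoter of Villin, an intestinal epithelial gene. Ehf IKO mice are labelled Ehf intestinal knockout, have the source name EVCER, and received tamoxifen. EHF is an epithelial transcription factor of the ETS family. Ehf IKO and Control OIL thus differ in tamoxifen as well as in Ehf, and Ehf IKO and Control TMX differ in mouse line as well as in Ehf. Control TMX and Control OIL differ from each other in tamoxifen as well as in mouse line. The Control TMX group was included by the study to account for transcriptional effects of tamoxifen. Colonic cells had been released from the opened colon in an EDTA buffer, and total RNA was sequenced.

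In the colon, cells divide in the lower part of the crypts and stop dividing as they move up to the surface, so the level of cell cycle messages in an epithelial sample follows how many cycling cells it holds and how much of each message those cells contain. In bulk RNA these cannot be told apart, and fewer cycling cells and less RNA per cycling cell would give the same values. Genes for replication are switched on before S phase, largely by E2F factors. Genes for mitosis are switched on later, in G2, through a promoter element called the cell cycle genes homology region (CHR), where the DREAM and B-MYB-FOXM1 complexes act, often beside CCAAT boxes bound by NF-Y.

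The libraries held between 7421411 and 10344161 counts. The members' own counts ran from 11 for Gins2 in Control TMX 1 to 4848 for Mki67 in Control TMX 4. By the female-specific RNA Xist and by Y-linked genes, replicates 1 and 2 of each group were female and replicates 3 and 4 were male. In Ehf IKO 2, 10.4% of the counts lay in 11 genes that had at least 10 times the CPM of every other library (CPM, counts per 1000000 counts), against at most 0.114% elsewhere. Ehf itself was counted at 385 to 481 CPM in Control OIL, 326 to 375 in the Control TMX group and 309 to 371 in Ehf IKO. These counts sum all exons and the labels do not name the deleted ones, so they do not check the knockout. Of the 7 epithelial markers (Epcam, Cdh1 and others), all were tested and none was at 0, with a summed level of 5570 to 8570 CPM. The summed markers of other cell types reached at most 7.69 CPM for T cells (2 of 6 genes passed the filter), 55.2 for B and plasma cells (2 of 6), 57.2 for myeloid cells (6 of 6), 93.2 for smooth muscle (6 of 6), and 12.1 for endothelium (2 of 5). Fibroblast markers (6 of 6) summed to 264 to 374 CPM in Control OIL, 388 to 667 in the Control TMX group and 368 to 919 in Ehf IKO, and their part in the results was not tested. The plasma cell gene Mzb1 was at 0 in both control groups and the endothelial gene Emcn at 0 in Control OIL.

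Promoter sequences are shown first, because the division of the list into S-phase and mitotic members is visible in them. RefSeq entries (GRCm38.p6, 250 bases before to 50 bases after the start) were matched for 38 of the 45 members, with 43 entries in all, and were searched on both strands. The E2F core (TTCCCGC or TTGGCGC) was present in 10 of 21 promoters of S-phase members (47.6%) and in 3 of 22 of mitotic members (13.6%), against 6.8% of all 32851 promoters. The CHR (TTTGAA or TTCGAA) was present in 18 of 22 promoters of mitotic members (81.8%) and in 2 of 21 of S-phase members (9.5%), against 19.2% of all promoters. The CCAAT box was present in 86.4% of the mitotic and 52.4% of the S-phase promoters, against 37.4% of all. The motifs were searched one by one and may overlap, and a match describes letters, not binding. In the pairs below, Mcm6 followed the S-phase block across the libraries and Tk1 did not, and Ccnb2 followed the mitotic block and Plk1 did not. Capitals mark any of the motifs on either strand. The Mcm6 promoter (chr1:128359656-128359955, minus strand) has 2 E2F cores and 2 CCAAT boxes, the Tk1 promoter (chr11:117825965-117826264, minus strand) has none of these letters, the Ccnb2 promoter (chr9:70421505-70421804, minus strand) has 2 CHR and 3 CCAAT matches, and the Plk1 promoter (chr7:122159185-122159484, plus strand) has 1 of each. The promoters of Ccne1, E2f1, Dut and Tyms also have none of these letters, and Dut and Tyms followed the S-phase block in that both were lowest in Control TMX 1 and 2.
Mcm6: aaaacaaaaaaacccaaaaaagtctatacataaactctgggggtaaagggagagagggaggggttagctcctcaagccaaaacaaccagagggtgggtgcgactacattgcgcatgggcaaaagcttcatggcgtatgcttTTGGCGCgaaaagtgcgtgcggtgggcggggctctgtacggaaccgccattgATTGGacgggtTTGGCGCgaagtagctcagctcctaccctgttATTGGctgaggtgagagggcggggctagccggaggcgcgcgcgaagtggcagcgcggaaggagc
Tk1: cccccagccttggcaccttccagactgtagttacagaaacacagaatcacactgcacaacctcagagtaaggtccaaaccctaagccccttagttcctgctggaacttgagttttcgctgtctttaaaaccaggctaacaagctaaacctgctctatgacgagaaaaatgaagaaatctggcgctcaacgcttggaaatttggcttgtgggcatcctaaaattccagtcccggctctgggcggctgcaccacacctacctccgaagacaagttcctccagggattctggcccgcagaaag
Ccnb2: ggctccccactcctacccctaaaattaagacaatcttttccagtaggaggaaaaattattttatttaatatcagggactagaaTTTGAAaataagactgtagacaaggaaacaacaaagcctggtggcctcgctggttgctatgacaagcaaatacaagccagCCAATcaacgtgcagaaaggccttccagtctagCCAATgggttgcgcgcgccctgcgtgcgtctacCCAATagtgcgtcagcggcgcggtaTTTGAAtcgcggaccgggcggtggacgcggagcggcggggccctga
Plk1: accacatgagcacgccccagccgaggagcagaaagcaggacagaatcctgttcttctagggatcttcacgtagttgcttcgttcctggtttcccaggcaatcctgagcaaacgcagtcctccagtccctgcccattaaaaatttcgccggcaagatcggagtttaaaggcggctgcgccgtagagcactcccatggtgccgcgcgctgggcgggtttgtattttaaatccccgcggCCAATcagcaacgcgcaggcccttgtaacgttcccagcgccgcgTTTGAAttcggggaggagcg

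The plot of all members by library shows that most of the list moved together from mouse to mouse.

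**Figure D1:**
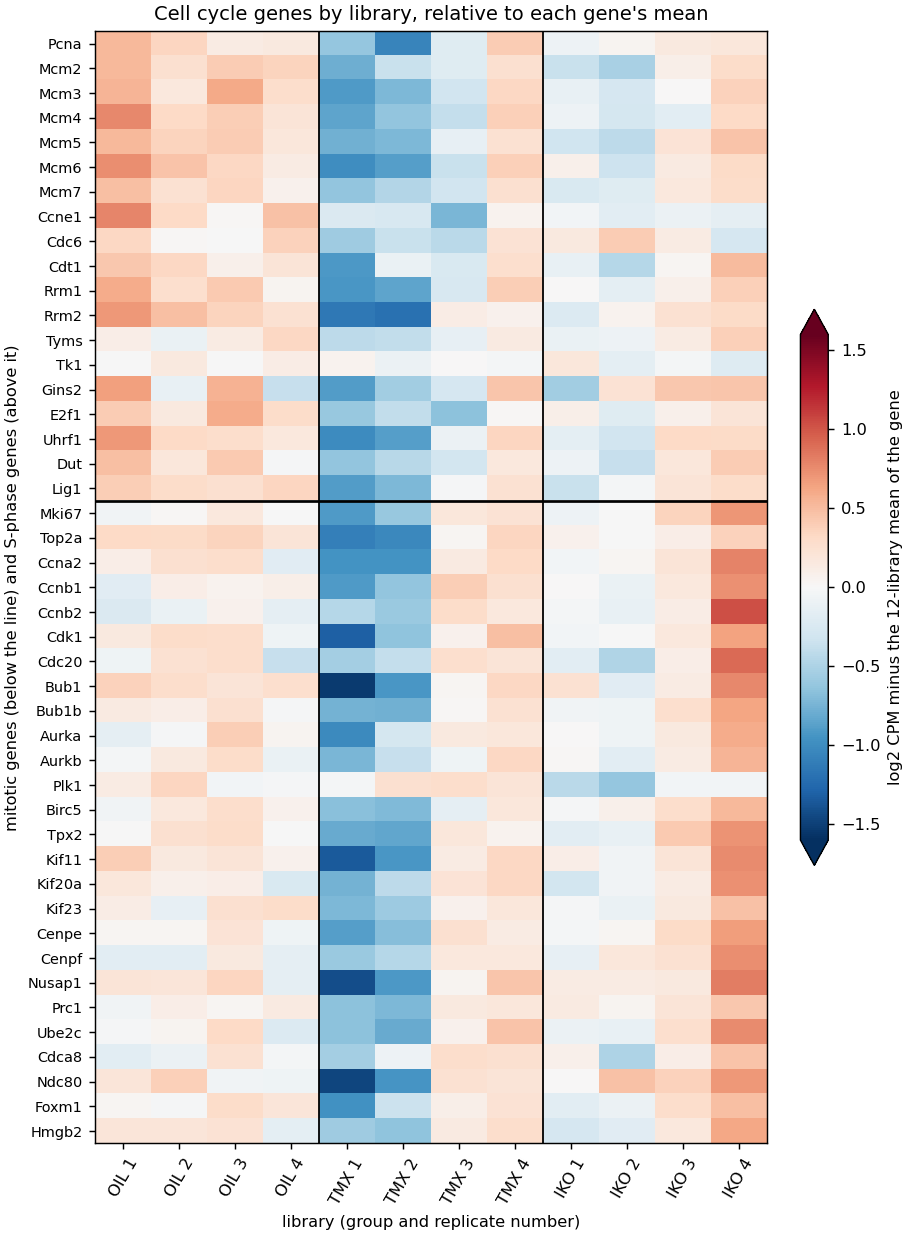
Centred log2 CPM of the 45 genes (rows) in the 12 libraries (columns, by group and replicate number), where red is above and blue below the gene's own mean over the 12 libraries. Control TMX 1 and 2 are blue for nearly all genes, Ehf IKO 4 is the reddest column of the mitotic block in 25 of its 26 rows, and the rows of Tk1 and Plk1 do not follow their blocks.

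Compared per kilobase of exon, Mki67, which encodes the proliferation antigen Ki-67 that coats mitotic chromosomes, had the highest mean level of the members over the 12 libraries (39.6 CPM per kb). Plk1, a mitotic kinase, followed at 33 CPM per kb, Top2a, the topoisomerase that untangles replicated DNA, at 19.5, Cdc20, an activator of the anaphase-promoting complex, at 16.2, and Ccnb2, which encodes cyclin B2, at 14.4. The highest S-phase member was Pcna, the sliding clamp of DNA polymerases, at 14 CPM per kb. The lowest were Gins2, a subunit of the replicative helicase, at 0.878 CPM per kb and Ccne1, which encodes cyclin E1, at 1.22 CPM per kb. Gins2 shares exonic sequence with Gse1 and Cdc20 with Elovl1, both on the opposite strand, and Top2a with Gm23451 on the same strand. The counting did not use strand, so the levels of these members are uncertain.

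Whether loss of Ehf goes with a change in these genes was asked against each control and against the mean of both. No member passed an adjusted p of 0.05 in any of these comparisons with edgeR's quasi-likelihood test, nor with DESeq2 or limma-voom. Against Control OIL 1.68% of all genes tested were called, against Control TMX 0.8%, and against the mean of both controls 1.72%. At an unadjusted p under 0.05, 3 of the 45 members (Mcm2, Ccne1 and Plk1, all lower) were reached against Control OIL, where 11.9% of all genes were. Against Control TMX, 5 members were (4 higher and Plk1 lower, 11.9% of all genes), and against the mean of both controls 2 (Cenpf higher and Plk1 lower, 11.6% of all genes). These shares are near or below those of all genes.

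The direction of the point estimates nevertheless differed between the blocks. All 19 S-phase members had a lower estimate in Ehf IKO than in Control OIL, with a median log2 fold change of -0.28 where the median of all genes was -0.01, and 22 of the 26 mitotic members had a higher estimate, with a median of 0.12. Without Ehf IKO 4 the mitotic estimates turned, with 20 of 26 lower and a median of -0.07. In the fit by sex described below, 18 of 19 S-phase estimates against Control OIL were lower in females, with a median of -0.56. In males 11 of 19 were lower, with a median of 0. Of the mitotic estimates against Control OIL, 22 of 26 were lower in females (median -0.13) and 24 of 26 higher in males (median 0.37). Against Control TMX, 18 of 19 S-phase members (median 0.32) and 25 of 26 mitotic members (median 0.41) had a higher estimate in Ehf IKO. Against the mean of both controls, the S-phase median was 0.02, with 11 of 19 higher, and the mitotic median 0.28, with 25 of 26 higher. Without Ehf IKO 4, 21 of 26 mitotic estimates were higher in that comparison, and leaving out 1 library brought the mitotic median to 0.08 at the lowest. Because the members move together across mice, these counts are not independent observations.

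The remaining comparison, between the control groups, also called no member with edgeR, DESeq2 or limma-voom (0.0826% of all genes with edgeR). In it tamoxifen and mouse line cannot be told apart. At an unadjusted p under 0.05, 14 of 19 S-phase members and 1 of 26 mitotic members, Top2a, were lower in Control TMX, against 6.23% of all genes tested. All 19 S-phase estimates were below 0, with a median of -0.60, and 23 of 26 mitotic estimates, with a median of -0.26. The mean CPM of Ehf IKO lay between those of the controls for 18 of 19 S-phase members and above both for 22 of 26 mitotic members. These means include Ehf IKO 4, the highest of the 12 libraries for 25 of the 26 mitotic members. The comparisons share control libraries, so their values are given side by side and not as agreement or disagreement between them. Leaving out Control TMX 4 brought 5 S-phase members (Mcm3, Mcm4, Mcm6, Pcna and Rrm1) under the threshold in the comparison of the controls. In that fit 0.298% of all genes tested were called.

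**Figure D2:**
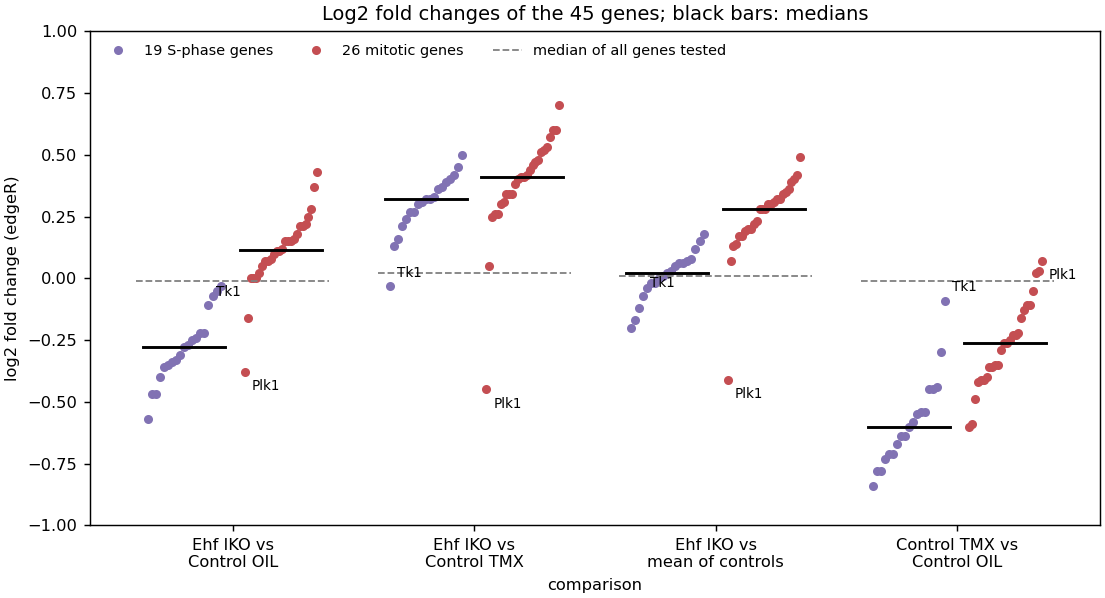
Log2 fold changes of the 19 S-phase (purple) and 26 mitotic members (red) in the 4 comparisons, sorted within each block, with black bars at the block medians and a dashed line at the median of all genes tested. The S-phase medians run from -0.60 in Control TMX against Control OIL to 0.32 in Ehf IKO against Control TMX, and Plk1 lies apart below the other mitotic genes in the 3 comparisons of Ehf IKO.

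Among the S-phase members, the genes that load and form the replicative helicase were measured first. Mcm2 (ENSMUSG00000002870, chromosome 6, 88883474 to 88898780, minus strand) encodes 1 of the 6 subunits of the MCM ring. Its levels were 34, 28.3, 31.2 and 30.3 CPM in Control OIL replicates 1 to 4, 13.7, 18.4, 20.7 and 28.2 in the Control TMX group, and 18.4, 16.4, 25.3 and 29 in Ehf IKO. The Control TMX libraries all lay below the Control OIL libraries, while Ehf IKO 4 lay within the Control OIL range. The log2 fold change was -0.47 ± 0.20 (SE, 95% interval -0.90 to -0.04, edgeR adjusted p = 0.345) in Ehf IKO against Control OIL and -0.60 ± 0.20 (adjusted p = 0.263) between the controls. Mcm6, another subunit of the ring, whose promoter with paired E2F cores is printed above, was at 70.6, 58, 53.2 and 46 CPM in Control OIL. It was at 21, 22.7, 32.8 and 54.8 CPM in the Control TMX group and at 44.5, 33.5, 46.7 and 52.4 CPM in Ehf IKO. The groups overlapped, and Control TMX 1 and 2 stood alone at the bottom. The other ring subunits, Mcm3, Mcm4, Mcm5 and Mcm7, had the same order of group means (for Mcm5 36.0 ± 3.46, 22.9 ± 8.02 and 28.4 ± 8.32 CPM, SD, n = 4, in Control OIL, Control TMX and Ehf IKO). Mcm7 shares exonic sequence with Cops6 and other genes, so its counts are uncertain.

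Cdc6 and Cdt1 encode the factors that bring the MCM ring to origins. Cdc6 was at 9.5, 7.64, 7.52 and 9.78 CPM in Control OIL, 4.97, 5.81, 5.51 and 8.88 in the Control TMX group, and 8.39, 10.1, 8.25 and 6.18 in Ehf IKO, with Ehf IKO 2 the highest of all libraries and Ehf IKO 4 the lowest of its group. Cdc6 and Tk1 were the only S-phase members with their lowest Ehf IKO value in replicate 4. Its log2 fold change was -0.07 ± 0.20 against Control OIL (adjusted p = 0.952). It was 0.37 ± 0.21 with Control TMX as the reference (adjusted p = 0.524). Cdt1 means were 14.8 ± 1.57, 10.7 ± 3.46 and 12.5 ± 3.63 CPM (SD, n = 4) in Control OIL, Control TMX and Ehf IKO. Gins2, the lowest member per kilobase, ranged from 1.71 to 5.45 CPM and had the largest standard error (0.34).

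Pcna and Lig1 act at the fork, Lig1 as the ligase that joins Okazaki fragments. Pcna was at 46.2, 40.9, 35.4 and 35.9 CPM in Control OIL, 21, 15.3, 28.2 and 42.7 in the Control TMX group, and 30.4, 33.3, 36.1 and 36.5 in Ehf IKO. Ehf IKO overlapped Control OIL, and Control TMX ran from the lowest value of the 12 to the second highest. The log2 fold change was -0.22 ± 0.23 in Ehf IKO against Control OIL (adjusted p = 0.818) and -0.55 ± 0.23 between the controls (adjusted p = 0.338). Lig1 was at 34.4 to 37.9 CPM in Control OIL, 15.4 to 34 in the Control TMX group and 22.4 to 35.2 in Ehf IKO, so that the control groups did not overlap. It shares exonic sequence with Zswim9 on the opposite strand, and the counting did not use strand.

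Rrm1 and Rrm2 encode the subunits of ribonucleotide reductase, which makes deoxynucleotides, and Tyms and Dut make thymidylate and its precursor. Rrm2 was at 16.2, 13.9, 12.7 and 11.8 CPM in Control OIL, 4.35, 4.2, 10.8 and 10.5 in the Control TMX group, and 8.5, 10.4, 11.8 and 12.4 in Ehf IKO. Its Control TMX libraries all lay below those of Control OIL, with replicates 1 and 2 lowest. At -0.84 ± 0.27 (adjusted p = 0.248), it had the lowest estimate of all members between the controls. Tyms varied less, at 23.1, 19.8, 23.6 and 27 CPM in Control OIL, 16, 16.3, 19.5 and 23.7 in the Control TMX group, and 19.9, 20.3, 23.5 and 28.1 in Ehf IKO. The groups overlapped, with a log2 fold change of -0.03 ± 0.15 in Ehf IKO against Control OIL (adjusted p = 0.979). Tk1 (ENSMUSG00000025574, chromosome 11, 117815526 to 117826092, minus strand), the thymidine kinase that salvages thymidine, did not follow the block. It was at 46.5, 52, 46.4 and 50.7 CPM in Control OIL, 48.6, 43.6, 46.7 and 45.5 in the Control TMX group, and 53, 41.8, 45.5 and 40.4 in Ehf IKO. The 3 groups overlapped, and Control TMX 1, the lowest library for 14 of the 19 S-phase members, was among the higher ones. Its intervals were narrow: -0.33 to 0.10 for the log2 fold change in Ehf IKO against Control OIL and -0.30 to 0.13 between the controls (adjusted p = 0.755 and 0.758). Tk1 shares exonic sequence with Afmid on the opposite strand and the counting did not use strand, so its counts are uncertain.

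Of the regulators, Ccne1 encodes cyclin E1, which drives entry into S phase with CDK2. Ccne1 was at 5.59, 3.98, 3.18 and 4.44 CPM in Control OIL, 2.64, 2.6, 1.8 and 3.27 in the Control TMX group, and 3.03, 2.76, 2.93 and 2.82 in Ehf IKO. Every Ehf IKO library lay below every Control OIL library, the only member of which this was true, against 3.29% of all genes tested. The log2 fold change was -0.57 ± 0.24 (95% interval -1.07 to -0.07, adjusted p = 0.325). E2f1, the E2F factor that switches on replication genes, was at 5.59, 4.65, 6.37 and 5.13 CPM in Control OIL, 2.64, 3.09, 2.54 and 4.21 in the Control TMX group, and 4.43, 3.59, 4.39 and 4.84 in Ehf IKO. With Mcm2, Rrm2 and Lig1 it was 1 of 4 members whose Control TMX libraries all lay below all Control OIL libraries, against 3.2% of all genes. At -0.78 ± 0.21 it had the smallest adjusted p of any member between the controls (0.178). Uhrf1, which keeps DNA methylation through replication, had means of 39.9 ± 6.75, 24.8 ± 11.3 and 32.1 ± 7.02 CPM (SD, n = 4) in Control OIL, Control TMX and Ehf IKO.

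The plot of 8 members by library gives the values of S-phase and mitotic members side by side.

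**Figure D3:**
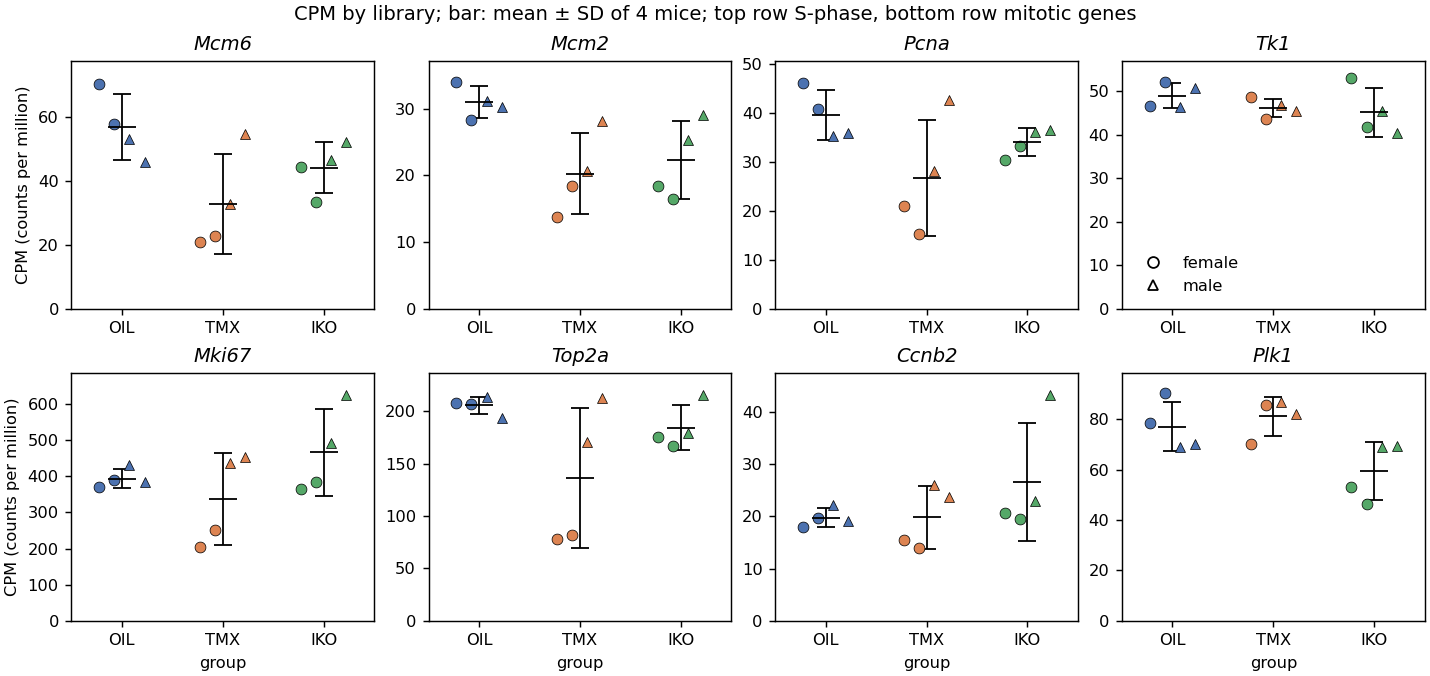
CPM of 4 S-phase members (top row) and 4 mitotic members (bottom row) in each library, with circles for females, triangles for males and bars for the mean ± SD of 4 mice, on axes that start at 0. The Control TMX females lie lowest for Mcm6, Mki67 and Top2a, Tk1 stays between 40.4 and 53 CPM, and the Ehf IKO females lie lowest for Plk1.

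Mki67 and Top2a were the mitotic members with the most counts. Mki67 was at 369, 390, 431 and 383 CPM in Control OIL, 205, 252, 437 and 453 in the Control TMX group, and 364, 383, 491 and 626 in Ehf IKO. The groups overlapped, with the lowest values in Control TMX 1 and 2 and the highest in Ehf IKO 4. Its log2 fold change was 0.25 ± 0.24 in Ehf IKO against Control OIL (adjusted p = 0.786) and 0.47 ± 0.24 with Control TMX as the reference (adjusted p = 0.467). Top2a was at 208, 207, 214 and 194 CPM in Control OIL, 78.4, 81.8, 171 and 213 in the Control TMX group, and 176, 167, 179 and 216 in Ehf IKO. Unlike most mitotic members its Ehf IKO mean lay below that of Control OIL, at -0.16 ± 0.26 (adjusted p = 0.910), and its estimate between the controls was -0.59 ± 0.26 (adjusted p = 0.370).

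The cyclins Ccna2, Ccnb1 and Ccnb2 and their kinase Cdk1 drive entry into mitosis. Ccnb2 (ENSMUSG00000032218, chromosome 9, 70407692 to 70421547, minus strand) was at 17.9, 19.6, 22.2 and 19.2 CPM in Control OIL, 15.4, 14, 26 and 23.8 in the Control TMX group, and 20.6, 19.5, 22.9 and 43.3 in Ehf IKO. A single mouse, Ehf IKO 4, was far above all others. The log2 fold change against the mean of both controls was 0.42 ± 0.21 (adjusted p = 0.487), and 0.08 without that mouse. Ccnb1, which encodes cyclin B1, was at 15.1, 18.5, 17.8 and 18.4 CPM in Control OIL, 9.01, 11, 22.7 and 20.5 in the Control TMX group, and 17.2, 15.9, 19.3 and 28.6 in Ehf IKO, with an estimate of 0.34 ± 0.26 against Control TMX (adjusted p = 0.659). Cdk1 means were 24.1 ± 2.68, 18.6 ± 9.47 and 25.0 ± 5.96 CPM (SD, n = 4) in Control OIL, Control TMX and Ehf IKO. Foxm1, the factor that activates these genes in G2, was at 19.4, 18.7, 23.3 and 21.8 CPM in Control OIL, 9.63, 15, 20.3 and 22.3 in the Control TMX group, and 16.9, 17.8, 23.3 and 26.6 in Ehf IKO. Its groups overlapped (0.31 ± 0.22 in Ehf IKO against Control TMX, adjusted p = 0.616). Foxm1 shares exonic sequence with Tex52 and Gm44596 on the same strand.

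Kinetochore and checkpoint genes included Ndc80, Cenpe, Cenpf, Bub1 and Bub1b. Ndc80, which binds microtubules at the kinetochore, was at 10.3, 11.8, 8.66 and 8.59 CPM in Control OIL, 3.11, 4.57, 10.7 and 10.5 in the Control TMX group, and 9.08, 12.6, 11.7 and 14.8 in Ehf IKO. It had the highest estimate of all members in Ehf IKO against Control TMX, 0.70 ± 0.30 (adjusted p = 0.378), and the Control TMX males lay within the Ehf IKO range. Cenpf, a large kinetochore protein, was at 64.1, 64.1, 80.3 and 65.4 CPM in Control OIL, 47.8, 52.6, 81.5 and 81.2 in the Control TMX group, and 66, 81.8, 85.4 and 121 in Ehf IKO. Its log2 fold change against the mean of both controls was 0.40 ± 0.17 (95% interval 0.04 to 0.75, adjusted p = 0.356). Bub1 ran from 3.42 CPM in Control TMX 1 to 17.7 CPM in Ehf IKO 4.

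Plk1, the kinase that acts from centrosome maturation to cytokinesis, was the exception among the mitotic members. It (ENSMUSG00000030867, chromosome 7, 122159439 to 122169873, plus strand) was at 78.5, 90.6, 69.2 and 70.2 CPM in Control OIL, 70.1, 85.6, 86.8 and 82.3 in the Control TMX group, and 53, 46.5, 68.9 and 69.4 in Ehf IKO. All Ehf IKO libraries lay below all Control TMX libraries, by a small margin, which held for no other member and for 3.87% of all genes, and 3 of the 4 lay below all Control OIL libraries. The 2 Ehf IKO females were the lowest. The log2 fold change was -0.38 ± 0.13 against Control OIL (adjusted p = 0.221), -0.45 ± 0.13 with Control TMX as the reference (adjusted p = 0.167) and -0.41 ± 0.12 against the mean of both controls (95% interval -0.67 to -0.16, adjusted p = 0.106). Without Ehf IKO 4 the last of these passed the threshold (-0.50, adjusted p = 0.0409), where 3.23% of all genes tested were called. Over 22 alternative analyses of that comparison the Plk1 estimate ran from -0.71 to -0.15, and in 19 of them it did not pass. Its exons overlap those of Gm44985 on the opposite strand. The Aurora kinases, which act with Plk1, had higher means in Ehf IKO than in either control, 14.6 ± 3.26 CPM for Aurka and 17.2 ± 3.76 CPM for Aurkb (SD, n = 4). Both were highest in Ehf IKO 4.

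Birc5 (survivin) and Cdca8 (borealin) belong with Aurkb to the chromosomal passenger complex. Birc5 was at 16.1, 18.8, 20.3 and 17.5 CPM in Control OIL, 10.4, 10.1, 15 and 19 in the Control TMX group, and 16.4, 17.7, 20.2 and 24 in Ehf IKO, with a log2 fold change of 0.51 ± 0.19 against Control TMX (95% interval 0.10 to 0.91, adjusted p = 0.299). Cdca8 means differed little, 12.7 ± 1.69, 12.9 ± 3.23 and 13.5 ± 3.53 CPM (SD, n = 4), and it overlaps 9930104L06Rik on the opposite strand. The spindle genes Tpx2, Kif11, Kif20a, Kif23, Nusap1 and Prc1, and the anaphase genes Cdc20 and Ube2c, were each highest in Ehf IKO 4. The chromatin protein Hmgb2 was highest in that library too.

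A score for each block, the mean over its members of log2 CPM centred on each gene's mean, shows the libraries in 1 value each. The S-phase score was 0.31 ± 0.14 in Control OIL, -0.33 ± 0.43 in the Control TMX group and 0.02 ± 0.20 in Ehf IKO (SD, n = 4). The mitotic score was 0.09 ± 0.10, -0.27 ± 0.55 and 0.18 ± 0.33 in the same order. The spread was smallest in Control OIL and largest in Control TMX, where replicates 1 and 2 were lowest and replicate 4 highest. The S-phase score minus the mitotic score was 0.09 to 0.46 in Control OIL, -0.40 to 0.13 in Control TMX and -0.38 to -0.08 in Ehf IKO, so that Ehf IKO and Control OIL did not overlap in this difference, and Control TMX overlapped both. In summed CPM the ratio of S-phase to mitotic members was 0.357 to 0.456 in Control OIL, 0.264 to 0.370 in the Control TMX group and 0.263 to 0.328 in Ehf IKO. These scores follow from the members' values above and carry no test.

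**Figure D4:**
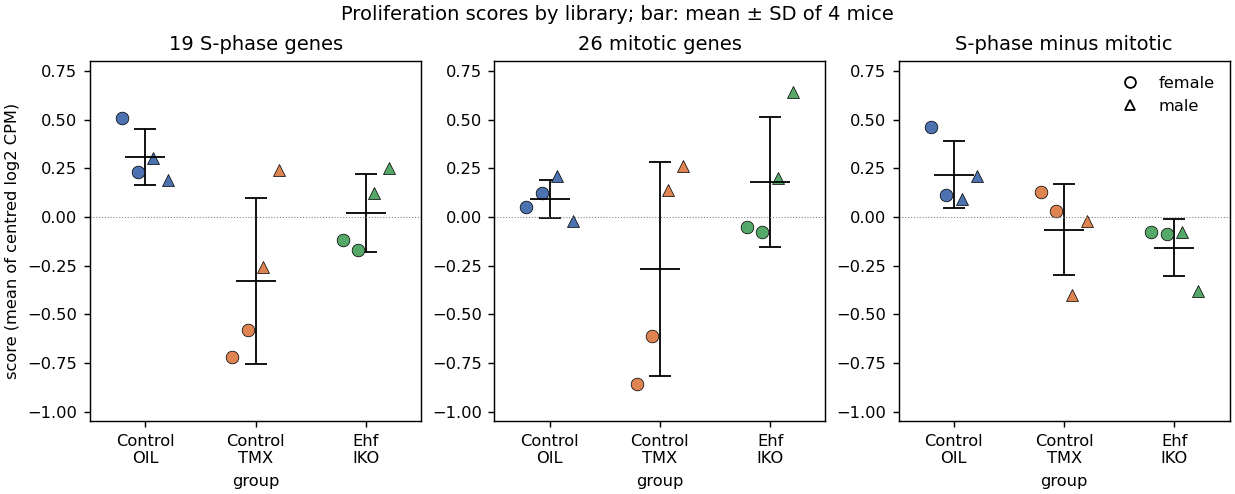
S-phase score, mitotic score and their difference (log2 units) in each library by group, with circles for females, triangles for males and bars for the mean ± SD of 4 mice. Control TMX 1 and 2 lie lowest in the S-phase and mitotic scores, and in the difference all 4 Control OIL libraries lie above all 4 Ehf IKO libraries.

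Single libraries stood out. Ehf IKO 4 was the highest of the 12 libraries for 25 of the 26 mitotic members (96.2%) but for 2 of the 19 S-phase members (10.5%), while it was highest for 14.9% of all genes tested. Control OIL 1 was the highest for 13 of 19 S-phase members (68.4%) and for no mitotic member, against 13.7% of all genes. Control TMX 1 and 2 both lay below the other 10 libraries for 35 of the 45 members (77.8%), 12 S-phase and 23 mitotic, against 8.84% of all genes. Markers of the crypt base (9 of 9 tested, among them Lgr5 and Ascl2, none at 0) summed to 343 to 412 CPM in Control OIL, 310 to 387 in the Control TMX group and 251 to 394 in Ehf IKO. Markers of surface colonocytes (10 of 10 tested, among them Krt20 and Slc26a3, none at 0) summed to 2640 to 5390, 5570 to 6320 and 4080 to 7970 CPM. A large part of these sums came from Car1 alone, at 590 to 2890, 1810 to 3700 and 1880 to 3240 CPM in the same order. In the same centred units, Ehf IKO 4 had a crypt base score of 0.38, the highest of the 12, and a surface score of -0.51. Control OIL 1 had 0.36 and -0.45, and Control TMX 1 had -0.21 and 0.33. The other low library, Control TMX 2, had -0.04 and 0.15. Control TMX 3 had -0.22 and 0.07, with an S-phase score of -0.26 and a mitotic score of 0.14. Control OIL 3 had 0.11 and -0.71, the lowest surface score of the 12, with an S-phase score of 0.3 and a mitotic score of 0.21. Ehf IKO 2 had the lowest crypt base score (-0.36) and the highest surface score (0.61) of the 12, with an S-phase score of -0.17 and a mitotic score of -0.08. The part of these markers in the members' values was not tested.

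Since both low Control TMX libraries were female, the groups were also compared within each sex, in a fit with a mean for each group and sex that was chosen after these values had been seen. With 2 mice of each group and sex, sex and whatever else those mice shared cannot be told apart. Between the controls in females, 28 of the 45 members fell with Control TMX, 12 S-phase and 16 mitotic, at an edgeR adjusted p under 0.05, where 5.54% of all genes fell. The median log2 fold changes of all S-phase and all mitotic members were -1.08 and -0.75. Rrm2 (-1.81 ± 0.21, adjusted p = 0.000242), Mcm6 (-1.55 ± 0.22, adjusted p = 0.00196), Ndc80 (-1.51 ± 0.25, adjusted p = 0.00346) and Top2a (-1.37 ± 0.14, adjusted p = 7.58e-05) were among them. In males no member was called, where 1.55% of all genes were, and the medians were -0.21 and 0.14. There 2 members were at an unadjusted p under 0.05 (E2f1 lower and Plk1 higher). At that cutoff 1113 of all 15743 genes were higher and 916 lower. The difference between the sexes itself passed the threshold for 20 members, 7 S-phase and 13 mitotic, all less negative in males, against 2.83% of all genes in that direction. It was largest for Ndc80 (1.81 ± 0.34, adjusted p = 0.0081) and Rrm2 (1.61 ± 0.28, adjusted p = 0.00531). For Tk1 the difference was 0.02 ± 0.19 and for E2f1 0.07 ± 0.43 (adjusted p = 0.956 and 0.943), and E2f1 was lower in Control TMX by like amounts in both sexes (-0.82 ± 0.32 and -0.75 ± 0.29).

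**Figure D5:**
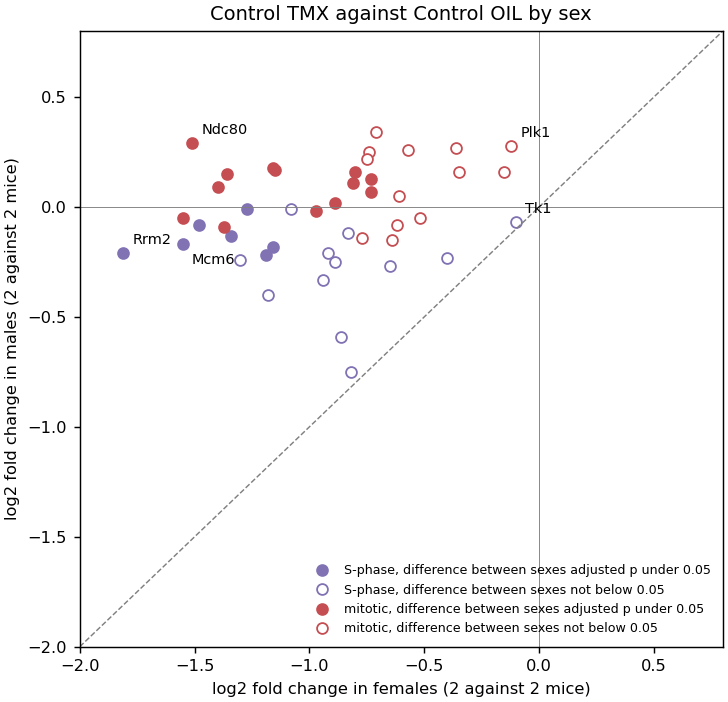
Log2 fold change between Control TMX and Control OIL in females (horizontal axis) and in males (vertical axis) for the 45 members, with filled points where the difference between the sexes had an adjusted p under 0.05 and a dashed line where both would be equal. All points lie left of 0 on the female axis, while the male values lie between -0.75 and 0.34.

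Against Control TMX, 20 members rose in Ehf IKO females, 6 S-phase and 14 mitotic, where 2.46% of all genes rose, and Plk1 fell (-0.65 ± 0.13, adjusted p = 0.0113). The same Control TMX females enter here as in the comparison of the controls. In males no member was called (0.515% of all genes). At an unadjusted p under 0.05, 6 mitotic members were higher in Ehf IKO males and 1 lower. At that cutoff 612 of all 15743 genes were higher and 790 lower. Against Control OIL, 4 members fell in Ehf IKO females: Mcm2 (-0.83 ± 0.18, adjusted p = 0.0268), Mcm5 (-0.81 ± 0.16, adjusted p = 0.0168), Uhrf1 (-0.75 ± 0.17, adjusted p = 0.0267) and Plk1 (-0.77 ± 0.13, adjusted p = 0.00648), where 1.69% of all genes fell. In males again none was called (2.64% of all genes). At an unadjusted p under 0.05, 12 mitotic members were higher in Ehf IKO males and 0 lower. At that cutoff 1316 of all 15743 genes were higher and 1326 lower. The difference between the sexes passed the threshold for no member in any comparison of Ehf IKO. The smallest edgeR adjusted p was 0.0704 against Control OIL and 0.0614 against Control TMX. Against Control OIL the estimate was higher in males for 43 of 45 members (median difference 0.52, all genes 0.01). Against Control TMX it was lower in males for 39 of 45 (median -0.38, all genes -0.03). Against the mean of both controls it was higher in males for 25 of 45 (median 0.01). A difference of the knockout's estimates between females and males is thus not shown for any single member.

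Lists of companion genes outside the 45 were measured in the same fit. Of 39 other replication genes tested, 29 had a lower estimate in Ehf IKO than in Control OIL (median -0.21) and 37 a lower one in Control TMX than in Control OIL (median -0.53). Of 48 other mitotic genes, 42 had a higher estimate in Ehf IKO than in Control OIL (median 0.15) and 46 a higher one than in Control TMX (median 0.39). A single replication gene was called: Cdc7, the kinase that fires loaded origins, fell in Ehf IKO against Control OIL (-1.25 ± 0.25, adjusted p = 0.0192). It was at 12.9, 8.74, 8.41 and 9.68 CPM in Control OIL, 4.5, 4.45, 6.78 and 8.88 in the Control TMX group, and 4.43, 3.86, 3.06 and 5.24 in Ehf IKO. All Ehf IKO libraries lay below all Control OIL libraries and overlapped those of Control TMX (-0.59 ± 0.25, adjusted p = 0.375). The call was lost without Control OIL 1 (adjusted p = 0.051) and without Ehf IKO 1, 2 or 3 (0.0577 to 0.0724), and in males alone (0.0525). Cdc45, a helicase cofactor, was at 0.38 ± 0.18 (adjusted p = 0.417) against the mean of both controls. Among the other mitotic genes the nearest to the threshold in that comparison were the spindle gene Dlgap5 (0.48 ± 0.16, adjusted p = 0.185), the phosphatase Cdc25c (0.56 ± 0.23, adjusted p = 0.346) and the kinetochore gene Spc25 (0.29 ± 0.13, adjusted p = 0.355).

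Of 10 genes that drive cells from G1 into S phase, E2f3, an E2F activator, rose in Ehf IKO against the mean of both controls (0.47 ± 0.10, adjusted p = 0.032). None of the 10 was called against either control alone. E2f3 was at 20.7 to 24.1 CPM in Control OIL, 18.3 to 25.6 in the Control TMX group and 34.1, 31.5, 30.3 and 27.8 in Ehf IKO, above every control library. All Ehf IKO libraries lay above all Control OIL libraries for 3.25% of all genes tested, and above all Control TMX libraries for 3.32%. The call was lost without any of Control OIL 1 or 4, Control TMX 1 or 2, or Ehf IKO 1, 2 or 3, with adjusted p between 0.0522 and 0.134. It was also lost with the replicate block (adjusted p = 0.0793) and in males alone (0.292). E2f2 was at 7.61 and 7.79 CPM in Control TMX 1 and 2 and at 19.4 to 34.1 CPM in the other 10 libraries (0.92 ± 0.35 in Ehf IKO against Control TMX, adjusted p = 0.323). Of 17 genes that restrain the cycle, none was called with edgeR over the 12 libraries. Cdkn1a, which encodes the CDK inhibitor p21, was at 49.5 to 76.7 CPM in Control OIL, 83.8 to 103 in the Control TMX group and 65.8 to 114 in Ehf IKO, lowest of its group in Ehf IKO 4, with an estimate of 0.60 ± 0.16 in Ehf IKO against Control OIL (adjusted p = 0.0816). That comparison of Cdkn1a passed the threshold with DESeq2 (adjusted p = 0.0258), without a filter on low counts (0.00114), without Ehf IKO 4 (0.00619) and in females alone (0.0482). In the other 19 of 23 alternative analyses it did not pass, and the lowest estimate was 0.35. Cdkn1a means were 63.4, 93.9 and 96 CPM in Control OIL, Control TMX and Ehf IKO. All Control TMX libraries lay above all Control OIL libraries for Cdkn1a, which held for 3.68% of all genes tested. Btg1 and Cdkn2b, a CDK4 and CDK6 inhibitor, had estimates of 0.24 ± 0.09 (adjusted p = 0.211) and 0.28 ± 0.12 (adjusted p = 0.365) against the mean of both controls, and Ccnd3, which encodes cyclin D3, -0.33 ± 0.11 (adjusted p = 0.193). In females alone E2f2 against Control TMX (adjusted p = 0.000177), and Ccnd3 (0.0348) and Dlgap5 (0.0418) against the mean of both controls, passed the threshold in the directions given above.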

How the data were processed

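The deposited tables hold raw counts of reads summed by gene name, which, per the file headers, the authors obtained with featureCounts (Subread 1.6.1) from the exons of Ensembl GRCm38 release 98 without strand and with its default handling of multi-mapping and shared reads. Alignment was with STAR, per the submitters' processing notes (version: not given in these sources). Counts were analysed as deposited with edgeR 4.0.16 (R 4.3.3): filterByExpr, TMM scaling, and 1 robust quasi-likelihood fit over the 12 libraries with 9 residual degrees of freedom, p-values adjusted by Benjamini-Hochberg over the 15743 genes tested, threshold 0.05. CPM are relative to the TMM-scaled library size, log2 CPM for scores take a prior count of 2, and SE come from the fit. The scripts were tested on simulated data. The libraries are taken as separate mice, since the labels give each its own source number. Where that does not hold, p-values measure technical spread only. By rule, members called in any comparison (none), the 5 of each block with the smallest p against the mean of both controls, and Mki67, Top2a, Pcna, Ccnb1, Foxm1 and E2f1 are given for every library; Mcm6 and Rrm2 were added after their values were seen. Of each companion list, called genes and the 3 with the smallest p are named, except 1 gene that is not reported here. The members and lists were chosen with earlier results of these data known. Alternatives were other scaling, filters and tools (DESeq2 1.42.0, limma 3.58.1), sex or replicate number as covariates, leaving out each library, and, added after seeing the data, fits by sex.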

Additional observations from a re-analysis of the deposited data

Results flagged for a closer look

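In 4 of 141 sets of 4 libraries (the members and the block scores in each group), 1 library lay apart from the other 3 by more than Dixon's 95% criterion, which chance meets in about 1 of 20. These were Ccnb2 in Ehf IKO 4 (43.3 CPM, next 22.9), Nusap1 in Ehf IKO 4 (33.9 CPM, next 21.3), Cenpf in Control OIL 3 (80.3 CPM, next 65.4) and Hmgb2 in Control OIL 4 (30.9 CPM, the lowest, next 39.4).

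In 20 members the log2 fold change between Control TMX and Control OIL differed between the sexes by the interaction term of the fit by sex, higher in males in each. The differences of the S-phase members were 1.61 for Rrm2, 1.4 for Uhrf1, 1.38 for Mcm6, 1.26 for Pcna, 1.21 for Rrm1, 0.97 for Lig1 and 0.97 for Mcm5. Those of the mitotic members were 1.81 for Ndc80, 1.5 for Nusap1, 1.5 for Bub1, 1.49 for Kif11, 1.34 for Cdk1, 1.32 for Ccna2, 1.29 for Top2a, 0.97 for Hmgb2, 0.94 for Tpx2, 0.93 for Cenpe, 0.91 for Bub1b, 0.86 for Mki67 and 0.8 for Prc1. The fit rests on 2 mice of each group and sex.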

How the results depend on the processing

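No member passed the threshold under TMM or DESeq2 scaling, the stricter filter, DESeq2, limma-voom, the fit of only the groups compared, the replicate block or sex as a covariate. Without a filter on low counts, where the median of all 41205 genes against the mean of both controls was 0.18 (0.01 as reported, over 15743), 1 member was called in Ehf IKO against Control TMX (Plk1), 2 against the mean of both controls (Plk1 and Cenpf), none against Control OIL, and 10 S-phase members between the controls. In the order Ehf IKO against Control OIL, against Control TMX, against the mean, and Control TMX against Control OIL, 1.68%, 0.8%, 1.72% and 0.0826% of all genes tested were called as reported (265, 126, 270 and 13 genes). Without a filter it was 1.76%, 1.21%, 2.02% and 1.07% of 41205 genes (724, 500, 831 and 441), and with DESeq2 3.39%, 1.94%, 2.99% and 1.25% (534, 305, 471 and 197). Between the controls it was 0.0357% with the stricter filter, 0.0508% with limma-voom and 0.241% with sex as a covariate, and in Ehf IKO against Control OIL 0.74% with only those groups fitted. Leaving out 1 library gave 0.65% to 4.41%, 0.312% to 1%, 0.67% to 3.23% and 0.0187% to 0.415%, each highest without Ehf IKO 4, and 0, 0, 0 to 1 and 0 to 5 members. Fits by sex, added after seeing the data, called 4, 21, 1 and 28 members and 3.3%, 5.02%, 3.55% and 8.96% of genes in females, and 0 members and 2.64%, 0.515%, 1.3% and 1.55% of genes in males. The medians of the S-phase and mitotic members between the controls were -1.08 and -0.75 in females and -0.21 and 0.14 in males. Same-numbered libraries did not all deviate together (5 of 12 pairs with r over 0.1, and 5 of 12 libraries closest to their own number), so the numbers, each of 1 sex, were not taken as pairs. With the replicate block 1.1%, 0.457%, 0.94% and 0.114% of genes (173, 72, 148 and 18) and no member were called. On the gene's strand alone the E2F core was in 6 and the CCAAT box in 7 of 21 S-phase promoters, and in 3.5% and 21.1% of all promoters. No estimate of a called result reversed. The cause of these differences was not tested. Low counts limit Gins2, Ccne1 and E2f1 most.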
